A study of Mus musculus with 12 samples.

Results

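The Hox genes, the homeodomain transcription factors that record position along the body axis, were read on 12 one-colour Agilent mouse arrays of brown adipose tissue (BAT) and subcutaneous white adipose tissue (scWAT). Members were all genes whose symbol is Hox with a cluster letter from a to d and a paralogue number, found through the transcript accession that each probe carries. This gave 39 Hox genes of 20660 genes with a symbol on the array, read by 43 of 55681 probes. Each gene was taken from its brightest probe. The study compared mice without Lr11 (also Sorl1, a sorting and lipoprotein receptor) with wild-type (WT) littermates in both depots, and the 4 groups, with 3 arrays each, were BAT and scWAT of WT mice and BAT and scWAT of Lr11 -/- mice. All groups were C57Bl6/J males at 12 weeks of age on a high-fat diet (HFD) with 60% of calories from fat, so no array stands for chow-fed mice or females. The labels give the diet both as 4 weeks and as lasting since weaning, and its length is not settled here. RNA came from ground frozen tissue, so every cell type of a depot contributed. The labels do not tie each array to an animal beyond 3 samples per group, and p-values measure the spread between these samples.

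Hox genes lie in 4 clusters, and within each cluster the low paralogue numbers are used toward the head and the high numbers toward the tail of the embryo. Fat cells and their precursors keep part of this code in the adult, so that depots can be told apart by their Hox genes. The BAT of mice is mostly collected between the shoulder blades, and scWAT mostly from the flank and groin, nearer the hind limbs.

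The sequences upstream of 4 genes of the depot comparison are given first, a pair that was higher in BAT (Hoxa5 and Hoxc4) and a pair that was higher in scWAT (Hoxa10 and Hoxd10). The RefSeq table on assembly GRCm38.p6 held 24 promoter entries for 22 of the 39 Hox genes, and none for Hoxc9, Hoxc10 or Hoxa4. Each stretch is the 250 bases before the transcription start, 5′ to 3′ on the strand of the gene, and capitals mark a nuclear receptor half-site (AGGTCA, or TGACCT on the other strand, a site that retinoic acid receptors among others can bind) or a TATA box (TATAAA, or TTTATA). The stretches are Hoxa5 (chr6:52204588-52204837, minus strand), Hoxc4 (chr15:103034145-103034394, plus strand), Hoxa10 (chr6:52234940-52235189, minus strand, the lower of its 2 listed starts) and Hoxd10 (chr2:74691641-74691890, plus strand).
Hoxa5: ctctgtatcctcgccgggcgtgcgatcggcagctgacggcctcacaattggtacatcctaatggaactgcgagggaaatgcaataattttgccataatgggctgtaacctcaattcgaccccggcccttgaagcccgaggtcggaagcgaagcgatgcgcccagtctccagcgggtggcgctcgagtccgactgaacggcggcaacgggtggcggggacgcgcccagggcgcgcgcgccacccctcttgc
Hoxc4: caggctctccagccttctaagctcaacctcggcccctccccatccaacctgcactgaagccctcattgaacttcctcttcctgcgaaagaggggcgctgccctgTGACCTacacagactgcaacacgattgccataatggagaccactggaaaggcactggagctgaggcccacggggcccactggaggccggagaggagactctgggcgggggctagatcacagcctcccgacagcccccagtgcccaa
Hoxa10: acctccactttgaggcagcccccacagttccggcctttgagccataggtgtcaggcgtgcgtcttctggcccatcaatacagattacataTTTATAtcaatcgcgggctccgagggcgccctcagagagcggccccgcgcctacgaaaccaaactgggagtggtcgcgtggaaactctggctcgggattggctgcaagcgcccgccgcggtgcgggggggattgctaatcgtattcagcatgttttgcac
Hoxd10: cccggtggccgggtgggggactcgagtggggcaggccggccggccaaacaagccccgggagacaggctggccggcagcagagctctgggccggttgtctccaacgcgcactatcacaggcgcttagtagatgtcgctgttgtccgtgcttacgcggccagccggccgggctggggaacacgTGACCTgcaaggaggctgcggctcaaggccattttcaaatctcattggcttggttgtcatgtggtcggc
The half-site lay 146 bases before the start of Hoxc4 and 69 before that of Hoxd10, so it was found in 1 gene of each direction. It was present in 6 of the 24 Hox entries and in 14% of all 32851 entries. The TATA box, matched by its letters alone, lay 160 bases before the start in the Hoxa10 stretch, and whether it acts there was not tested. It was present in 4 Hox entries and in 12.4% of all entries, and a Hox-Pbx element (TGATTNAT, or ATNAATCA) in 2 Hox entries and 2.82% of all. The Hox entries held a median of 12.5 CpG dinucleotides, against 6 over all entries, and the printed stretches of Hoxa5, Hoxc4, Hoxa10 and Hoxd10 held 28, 8, 20 and 20.

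Values are log2 intensity minus the 75th percentile of the array, so that a spot at that percentile reads 0. Replicate 1 of each group belonged to a first array series and replicates 2 and 3 to a second. Per array, 32377 to 37002 spots passed the scanner's test for signal well above background, and 0 reached saturation. Sorl1 lay between 0.11 and 1.21 on the 6 WT arrays and between −3.93 and −2.45 on the 6 Lr11 -/- arrays. Several arrays stood apart in their cell type markers. The mean of 10 brown adipocyte markers was 5.34 to 6.16 on the 6 BAT arrays, −2.90 to 1.71 on the WT scWAT arrays, 2.56 on Lr11 -/- scWAT replicate 1, and 6.08 and 5.88 on Lr11 -/- scWAT replicates 2 and 3, which is the level of BAT. Ucp1, the uncoupling protein of brown fat, read 9.75 and 10.05 on those 2 arrays and 9.45 to 10.07 on the BAT arrays. The mean of 12 skeletal muscle markers was 4.99 to 8.16 on 5 arrays (WT scWAT replicate 3, Lr11 -/- scWAT replicate 1, WT BAT replicates 1 and 3, Lr11 -/- BAT replicate 1) and −4.51 to −3.41 on the other 7. The mean of 8 epithelium markers was 1.17 on Lr11 -/- scWAT replicate 1, against −3.02 and −2.85 on replicates 2 and 3 and at most −2.21 on the other arrays; without that array 12 Hox genes were called between the depots and 5 between genotypes in scWAT (Hoxa4, Hoxc5, Hoxc11, Hoxd8 and Hoxd10), and its part in these counts was not tested. The mean of 6 white adipocyte markers was lowest, 0.93, on WT scWAT replicate 2, against 1.66 to 6.74 elsewhere. In whole tissue, fewer cells of a type and less RNA per cell cannot be told apart.

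Of the 39 Hox genes, 32 were well above background on at least 1 scWAT array and 24 on at least 1 BAT array, while 7 (Hoxb1, Hoxb13, Hoxc12, Hoxc13, Hoxd1, Hoxd12 and Hoxd13) were above it on none. The depots parted at the high numbers. Of the 12 genes with paralogue numbers 10 to 13, 7 were detected on at least 1 scWAT array and 1, Hoxc10, on a single BAT array. Of the 15 genes with numbers 1 to 5, 13 were detected in scWAT and 12 in BAT, and of the 12 with numbers 6 to 9, 12 and 11. The gene that accounts for the last difference is Hoxc9. Tests were run on the 28 Hox genes detected in every replicate of 1 group or more; the remaining 11 were Hoxa11, Hoxa13, Hoxb1, Hoxb13, Hoxc12, Hoxc13, Hoxd1, Hoxd3, Hoxd11, Hoxd12 and Hoxd13. A gene that passed this filter only through the depot where it is bright had to differ, so the counts over the tested genes describe them and no more.

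The first comparison asked which Hox genes differ between BAT and scWAT, with both genotypes averaged. With limma and Benjamini-Hochberg adjustment over all 32121 tested probes, 14 of the 28 Hox genes passed an adjusted p of 0.05, 5 higher in BAT and 9 higher in scWAT. Over all tested probes 24.2% passed, 15.6% higher in BAT and 8.64% higher in scWAT. The 5 genes higher in BAT (Hoxa3, Hoxa4, Hoxa5, Hoxc4 and Hoxc5) all had paralogue numbers 3 to 5. The 9 genes higher in scWAT (Hoxb7, Hoxc8, Hoxb9, Hoxc9, Hoxd9, Hoxa10, Hoxc10, Hoxd10 and Hoxc11) all had numbers 7 to 11. None of the 3 genes with number 6 was called, with differences between −0.29 and −0.23. By cluster, the counts higher in BAT and in scWAT were 3 and 1 of 9 tested in Hoxa, 0 and 2 of 8 in Hoxb, 2 and 4 of 7 in Hoxc, and 0 and 2 of 4 in Hoxd. The median difference over the 28 genes was −0.26, against 0.07 over all tested probes. As a description, Spearman's rho between paralogue number and BAT minus scWAT was −0.74 over the 28 genes and −0.63, −0.71, −0.82 and −0.60 within Hoxa (9), Hoxb (8), Hoxc (7) and Hoxd (4); all points come from the same 12 arrays.

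**Figure D1:**
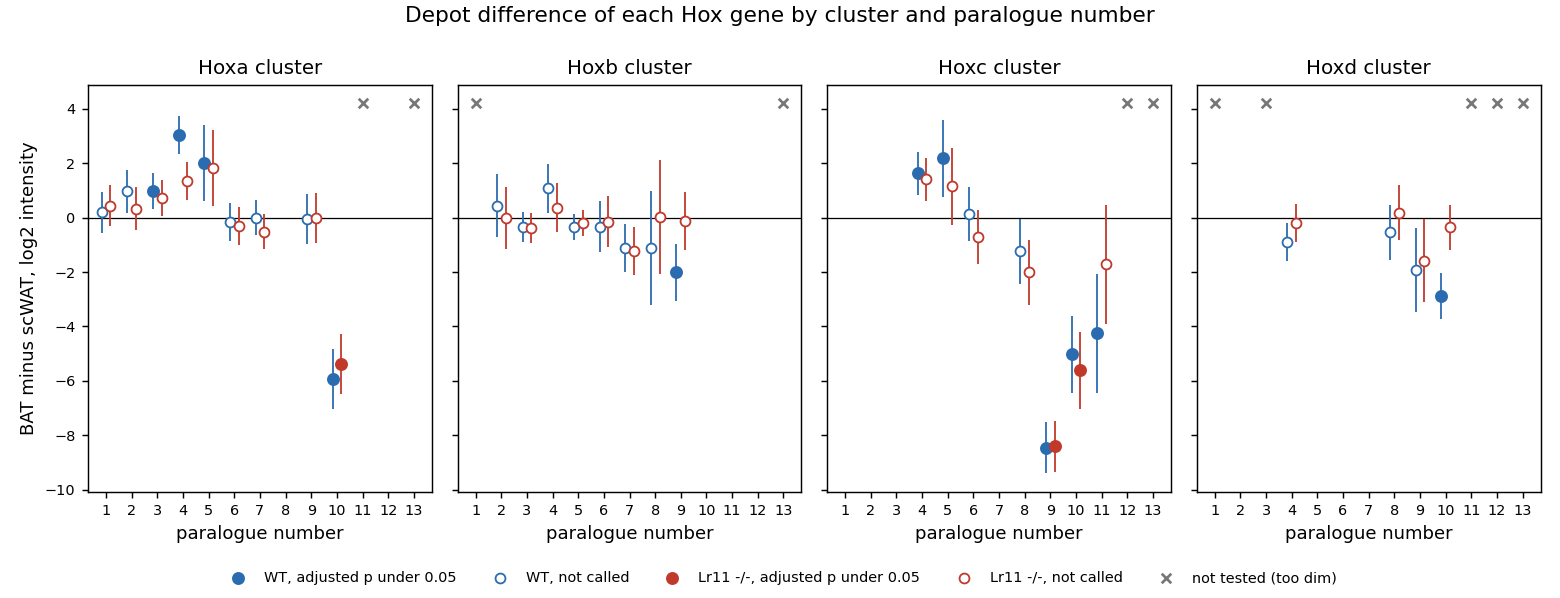
Difference between BAT and scWAT (log2 intensity, y axis) of each tested Hox gene by paralogue number (x axis) in the 4 clusters, for WT (blue) and Lr11 -/- (red), with 95% intervals of the limma fit; filled points passed an adjusted p of 0.05, and crosses mark the 11 genes too dim to test, with no value. In Hoxa and Hoxc the filled WT points lie above 0 at numbers 3 to 5 and far below 0 for Hoxa10, Hoxc9, Hoxc10 and Hoxc11, and Hoxc9 lies at −8.46 in WT and −8.41 in Lr11 -/-.

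The largest depot differences belonged to Hoxc9, Hoxa10 and Hoxc10, all higher in scWAT. Values are given in the order of replicates 1 to 3. Hoxc9, a gene of the thoracic and lumbar body often used to mark subcutaneous fat, read 1.53, 1.08 and 3.02 on the WT scWAT arrays and 2.19, 2.36 and 2.13 on the Lr11 -/- scWAT arrays. On the WT BAT arrays it read −6.87, −6.49 and −6.38 and on the Lr11 -/- BAT arrays −6.28, −5.79 and −6.46. All 6 scWAT arrays were bright, and none of the 6 BAT arrays was well above background, so the fold change has a lower bound only. With each dim array raised to the weakest signal that counted as detected on it, scWAT was at least 111-fold higher than BAT (at least 104-fold in WT and 118-fold in Lr11 -/-). This bound, like those below, holds only on the intensity scale used here. With another background correction, given below, the differences of Hoxc9 and Hoxa10 fell short of their bounds. The fitted difference was −8.43 (SE 0.30, limma adjusted p = 8.07e-07), the smallest p of all 32121 probes. It was −8.43 in the first array series and −8.43 in the second. Hoxc9, like Hoxa10 and Hoxc10 below, passed the filter only through scWAT. The filter thus favoured these calls, and their p-values and ranks are given as a description.

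Hoxa10, which patterns the lumbar spine and the hind limb, read 0.30, −2.19 and −0.30 in scWAT of WT and −0.97, −1.18 and −1.28 in scWAT of Lr11 -/- mice. No BAT array was well above background, with −6.80, −6.65 and −6.49 for WT mice and −6.25, −6.73 and −6.63 for Lr11 -/- mice. The lowest scWAT array, WT replicate 2, was still brighter than every BAT array. In scWAT the gene was at least 13.9-fold higher than in BAT, with a fitted difference of −5.66 (SE 0.35, limma adjusted p = 7.02e-05). The 250 bases before 1 of its starts are printed above.

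Hoxc10, a gene of the lumbar region known as a restraint on browning of subcutaneous fat, read −0.92, −0.57 and 0.73 on the WT scWAT arrays and 0.74, 0.48 and 0.06 on those of Lr11 -/- scWAT. The BAT arrays read −4.51, −6.55 and −4.79 in WT and −6.30, −4.72 and −4.51 in Lr11 -/-, and only WT BAT replicate 1 was well above background. The depots did not overlap. The fitted difference was −5.32 (SE 0.45, limma adjusted p = 0.00053), and in Lr11 -/- mice scWAT was at least 32.9-fold higher than BAT.

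In these 3 genes the 6 BAT arrays did not overlap the 6 scWAT arrays, and the same held in the other direction for Hoxa4 and Hoxc4. That is 5 of 28 Hox genes (17.9%), against 6.69% of all tested probes. The exact two-sided permutation test of 6 against 6 arrays gave p = 0.00216 for each of the 5 genes, the smallest it can give. Hoxc9, Hoxa10 and Hoxc10 passed the filter only through scWAT, which favoured this outcome. Their p and their share of the count are thus a description, while Hoxa4 and Hoxc4 passed the filter in both depots. For Hoxc4 the depots touched, since the lowest BAT and the highest scWAT array both read 1.07. With the background corrected by normexp on the median signals, Hoxc9 (−4.56), Hoxa10 (−2.17), Hoxc10 (−2.74) and Hoxa4 (1.42) differed less and were still called. Hoxc8 (−0.53) and Hoxc11 (−0.76) were also still called, and Hoxd9 (−0.90, adjusted p = 0.0614) and Hoxb9 (−0.37, 0.146) were not. With the slide as a block, where the first array series of each depot has a slide of its own, 6 genes were called, Hoxa5 and the 5 genes without overlap.

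Hoxc11, a neighbour of Hoxc10 used in the hind limb and tail region, was bright on 4 arrays. WT scWAT read −1.48, −3.10 and −2.79, all well above background, and Lr11 -/- scWAT read −1.90, −6.69 and −6.03, where only replicate 1 was. WT BAT (−6.83, −6.72 and −6.58) and Lr11 -/- BAT (−6.26, −6.79 and −6.71) were dim throughout. WT scWAT was at least 5.16-fold higher than WT BAT. Lr11 -/- scWAT replicates 2 and 3, the arrays with brown markers at the level of BAT, were not above background for this gene, like BAT. The averaged difference was −2.98 (SE 0.70, limma adjusted p = 0.0147). Hoxc11 passed the filter only through WT scWAT, so the filter favoured this call, and it is given as a description.

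Hoxd10, a gene of the hind limb and lumbar motor neurons, was measured above background on the WT scWAT arrays only, at −4.25, −3.97 and −3.42. Elsewhere it was dim, at −5.34, −6.82 and −5.94 on the arrays of Lr11 -/- scWAT, −6.72, −6.85 and −6.70 on those of WT BAT and −6.42, −5.91 and −6.84 on those of Lr11 -/- BAT. WT scWAT was at least 1.92-fold higher than WT BAT. Over both genotypes the lower bound of scWAT over BAT was −0.22 in log2, so no minimum rise can be given there. Hoxd10 passed the filter only through WT scWAT, so its depot call was favoured by the filter and is given as a description. The fitted difference of −1.62 (limma adjusted p = 0.00503) shrank to −0.08 (adjusted p = 0.661) when the background was corrected with normexp on the median signals.

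Hoxd9, a limb and lower trunk gene, was well above background on all 12 arrays. WT mice read −1.48, −2.15 and 0.09 in scWAT and −2.66, −4.28 and −2.36 in BAT, and Lr11 -/- mice −0.86, −2.37 and −2.89 in scWAT and −3.30, −4.05 and −3.51 in BAT. Within each genotype all 3 scWAT arrays were brighter than all 3 BAT arrays. Its difference was −1.75 (SE 0.49, limma adjusted p = 0.0281), and the call was lost (adjusted p 0.0514 to 0.0662) without Lr11 -/- scWAT replicate 1, WT BAT replicate 2 or any 1 of the Lr11 -/- BAT arrays.

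Hoxc8, known from cell studies as a repressor of brown adipogenesis, read −2.92, −3.27 and −2.68 on the WT scWAT arrays and −2.30, −2.17 and −1.81 on those of Lr11 -/- scWAT. The BAT arrays read −3.44, −5.11 and −4.06 in WT and −4.36, −2.87 and −5.06 in Lr11 -/-, with 3 of the 6 BAT arrays well above background. A single BAT array, Lr11 -/- replicate 2, reached the range of scWAT. The difference was −1.62 (SE 0.38, limma adjusted p = 0.0147). Hoxc8 passed the filter only through scWAT, so the filter favoured this call, and it is given as a description.

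The smallest calls toward scWAT were in the Hoxb cluster. Hoxb7, a gene of the thoracic region, read 0.25, 0.79 and −0.27 in WT and −0.84, 0.35 and 0.21 in Lr11 -/- scWAT, against −1.47, −0.72 and −0.43 in WT and −1.58, −0.96 and −1.45 in Lr11 -/- BAT. Within each genotype the depots did not overlap, and across genotypes WT BAT replicates 2 and 3 lay above Lr11 -/- scWAT replicate 1. Its difference was −1.18 (limma adjusted p = 0.016), and −1.23 in the first array series and −1.16 in the second. Hoxb9, which patterns the ribs, had means of −2.04 ± 0.73 (SD, n = 3) in WT scWAT, −3.35 ± 0.45 in Lr11 -/- scWAT, −4.05 ± 0.39 in WT BAT and −3.47 ± 0.85 in Lr11 -/- BAT. Its difference of −1.07 (limma adjusted p = 0.043) was carried by WT (−2.01) and was −0.12 in Lr11 -/-. The call was lost (adjusted p 0.0608 to 0.102) with any 1 of 8 arrays left out, namely each WT BAT array, replicates 2 and 3 of Lr11 -/- BAT, replicates 1 and 3 of Lr11 -/- scWAT and replicate 2 of WT scWAT.

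Hoxa4, a gene of the neck vertebrae, was the most different of the genes higher in BAT. It read −0.58, −0.62 and −0.73 on the WT BAT arrays and −0.84, −1.10 and −1.29 on the Lr11 -/- BAT arrays. In scWAT it read −3.71, −4.30 and −3.03 in WT, where replicate 2 was not well above background, and −2.89, −2.20 and −2.20 in Lr11 -/-. Every BAT array was brighter than every scWAT array, by a fitted 2.19 (SE 0.23, limma adjusted p = 0.00118). The difference was 2.59 in the first array series and 2.0 in the second.

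Hoxa5, known for its part in lung formation and in the patterning of the neck and upper chest, read 0.00, 0.52 and 0.16 in WT BAT and −0.53, −1.38 and −0.82 in Lr11 -/- BAT. In scWAT it read −0.35, −3.36 and −1.62 in WT and −1.92, −3.20 and −3.07 in Lr11 -/-. Within each genotype BAT was above scWAT on all arrays, while WT scWAT replicate 1 reached the Lr11 -/- BAT range. Its difference was 1.91 (SE 0.45, limma adjusted p = 0.015).

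Hoxc4, the first gene of its cluster in mice, read 1.64, 2.37 and 1.84 in WT BAT and 1.53, 1.54 and 1.07 in Lr11 -/- BAT. The scWAT values were −0.27, 0.17 and 1.07 for WT and 0.37, −0.22 and −0.24 for Lr11 -/- mice. The lowest BAT array, Lr11 -/- replicate 3, and the highest scWAT array, WT replicate 3, lay at the same level to the second decimal. The difference was 1.52 (SE 0.25, limma adjusted p = 0.00489).

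Hoxc5, its neighbour, read 0.58, 1.48 and 0.59 in WT BAT and 0.98, 0.87 and 0.44 in Lr11 -/- BAT, against −1.07, −2.17 and −0.67 in scWAT of WT and −2.04, 0.77 and 0.09 in scWAT of Lr11 -/- mice. The 2 Lr11 -/- scWAT arrays with brown markers at the level of BAT were the highest of scWAT, and 1 of them lay within the BAT range. The difference was 1.67 (SE 0.45, limma adjusted p = 0.0254), and the call was lost (adjusted p 0.0528 to 0.0659) without WT BAT replicate 2 or Lr11 -/- BAT replicate 1 or 2.

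Hoxa3, needed for the thymus and parathyroid, showed the smallest rise in BAT. It read 0.55, 1.17 and 1.02 in WT BAT and 0.16, 0.83 and 0.38 in Lr11 -/- BAT, against −0.34, −0.34 and 0.48 in scWAT of WT and 0.06, −0.53 and −0.34 in scWAT of Lr11 -/- mice. WT scWAT replicate 3 lay within the BAT range. The difference was 0.85 (SE 0.21, limma adjusted p = 0.0184), and the call was lost without scaling between arrays (0.63, adjusted p = 0.116), with the slide as a block (0.055), without WT BAT replicate 2 (0.0515) and without both Lr11 -/- scWAT arrays with brown markers at the level of BAT (0.0879).

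**Figure D2:**
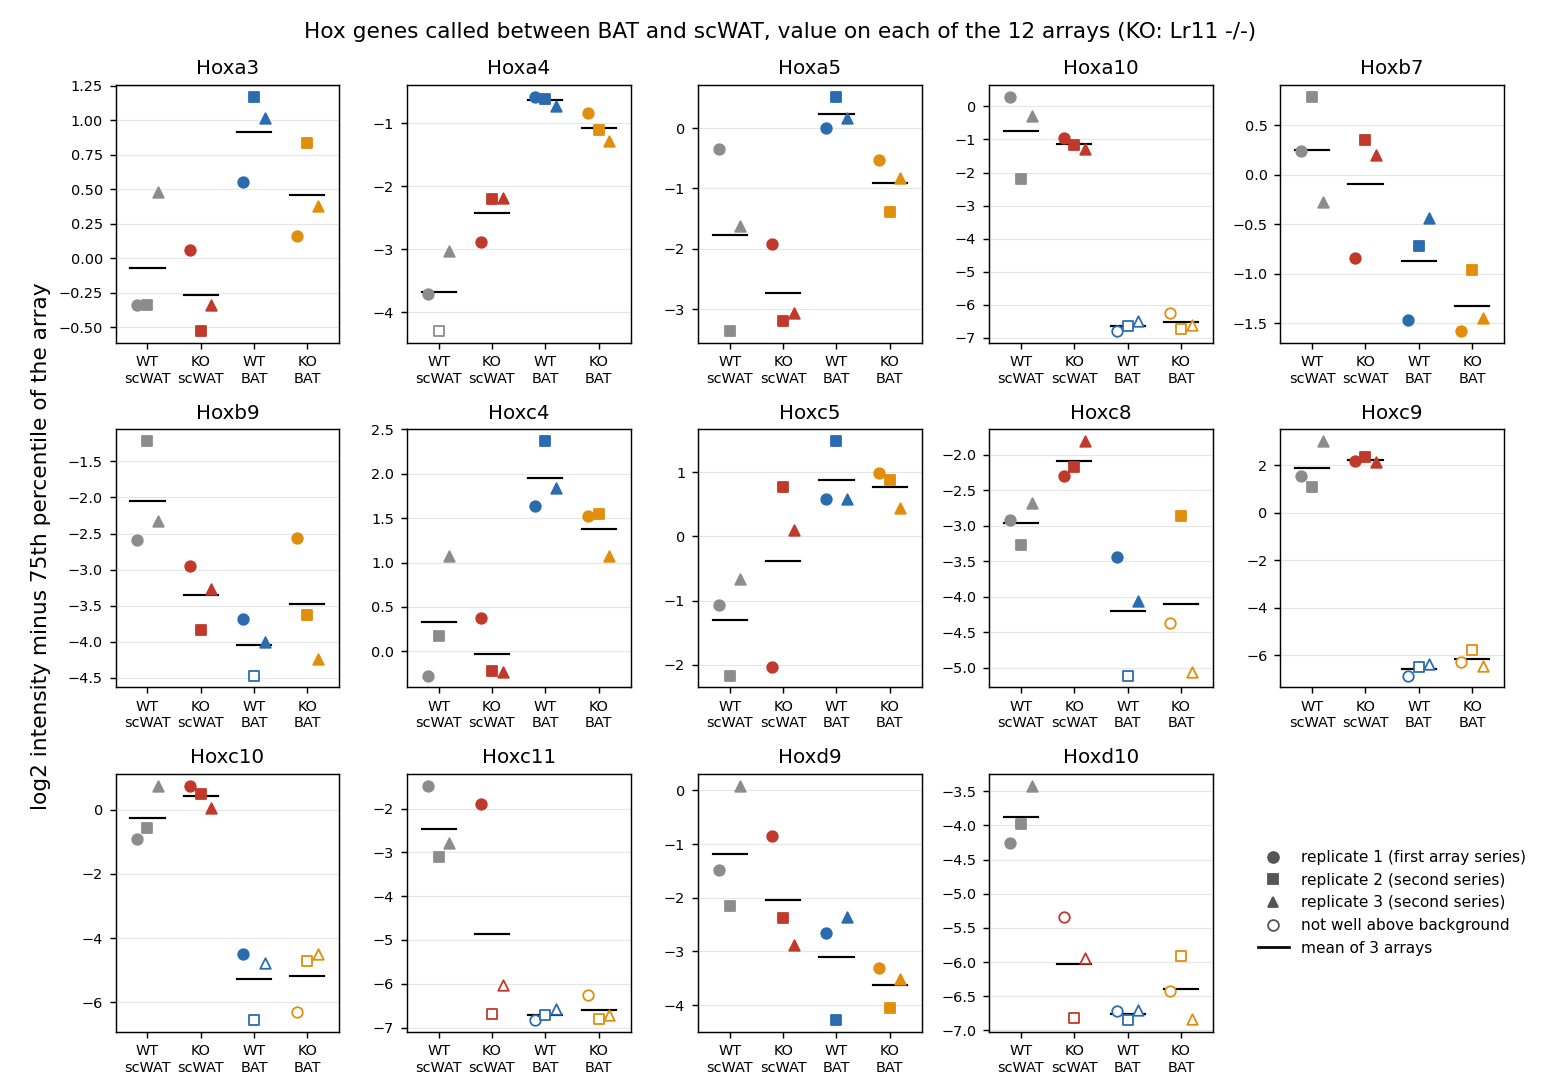
The 14 Hox genes called between BAT and scWAT, with log2 intensity minus the array's 75th percentile (y axis, scaled per gene) on each array of the 4 groups (KO, Lr11 -/-); symbols give the replicate, open symbols were not well above background and bars are group means. Hoxa10 and Hoxc9 are bright on all 6 scWAT arrays and open on all 6 BAT arrays, while in Lr11 -/- scWAT Hoxc11 is open on replicates 2 and 3 and Hoxd10 on all 3 arrays.

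The 14 Hox genes that were not called between depots had differences between −0.55 and 0.72. Their 95% intervals differed in width, from −0.60 to 0.08 for Hoxb5 to −2.03 to 0.94 for Hoxb8. Hoxb2 (0.21), Hoxa9 (−0.04) and Hoxd8 (−0.18) lay nearest to 0. The scWAT arrays of Hoxb8 ran from −3.58 to 0.63. A second probe was tested for Hoxb3 and Hoxa9, and in both it gave a call toward scWAT that the brighter probe did not. For Hoxb3 the second probe fell by 0.70 in BAT (limma adjusted p = 0.0329; brighter probe −0.36, 0.142), and for Hoxa9 by 1.04 (0.0488; brighter probe −0.04, 0.935). The probes of a gene thus disagree, and transcripts of these clusters can share exons or overlap one another, which the array cannot separate.

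In WT alone, 11 of the 28 Hox genes were called between the depots, against 24.8% of all probes (15.7% higher in BAT and 9.13% higher in scWAT). These were the 5 genes higher in BAT and Hoxb9, Hoxc9, Hoxa10, Hoxc10, Hoxd10 and Hoxc11 higher in scWAT. Of the genes higher in scWAT, all but Hoxb9 passed the filter only through scWAT, which favoured their calls. Without any scaling between arrays the split was 2 higher in BAT and 8 higher in scWAT instead of 5 and 6, and without WT BAT replicate 2 the count was 7. In WT 15 of the 28 genes had no overlap between the 3 BAT and 3 scWAT arrays, against 40.2% of all probes. The smallest p of an exact permutation test of 3 against 3 arrays is 0.1, so no single gene can pass that test.

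In Lr11 -/- mice, 3 Hox genes were called between the depots, Hoxc9, Hoxa10 and Hoxc10, all higher in scWAT. Only 13 of the 32121 probes were called there in all, or 0.0405%, and 0.0187% were higher in scWAT. Hoxc9 had the smallest p of the 13 (−8.41, SE 0.42, limma adjusted p = 3.09e-05), Hoxa10 the fourth (−5.40, adjusted p = 0.00365) and Hoxc10 the seventh (−5.61, adjusted p = 0.0157). All 3 passed the filter only through scWAT, so it favoured these calls, and their p-values and ranks are given as a description. Fitted to the second array series alone, Hoxc9 (−8.37, adjusted p = 0.0664), Hoxa10 (−5.45, 0.0664) and Hoxc10 (−4.89, 0.136) kept their size without a call, and without the arrays with high muscle markers only Hoxc9 was called. With normexp on the median signals Hoxa10 fell by 1.89 in BAT (adjusted p = 0.229), and Hoxc9 (−4.71) and Hoxc10 (−3.03) stayed called. The call of Hoxc10 was also lost with the slide as a block (0.0949) and (adjusted p 0.0561 to 0.0718) without any 1 of Lr11 -/- scWAT replicates 2 and 3 or the Lr11 -/- BAT replicates. The other named genes called were Galr1, Mmd2 and Ssh1, higher in BAT, and Slitrk4, H2-M9 and Gria3, higher in scWAT, and 4 probes had no gene name here. The genes that were higher in BAT in WT kept their sign in Lr11 -/- with differences of 1.35 for Hoxa4, 1.82 for Hoxa5, 1.41 for Hoxc4, 1.15 for Hoxc5 and 0.73 for Hoxa3, and none passed (adjusted p 0.269 to 0.632). Lr11 -/- arrays did not overlap between depots for 13 of the 28 genes, against 23.2% of all probes.

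The difference between both depot differences was tested directly. Of the 28 Hox genes 0 passed in limma, and of all 32121 probes 0 (0%), while 3 Hox genes had an unadjusted p under 0.05, against 11% of all probes. These were Hoxd10, whose depot difference was −2.88 in WT and −0.36 in Lr11 -/- (difference 2.52, limma adjusted p = 0.285), Hoxa4 (3.04 and 1.35; −1.69, 0.38) and Hoxb9 (−2.01 and −0.12; 1.89, 0.404). Leaving out Lr11 -/- scWAT replicate 1 gave 3 calls, Hoxa4, Hoxc11 and Hoxd10. Hoxc11 and Hoxd10 passed the filter only through WT scWAT, which favoured such a difference, so their values here are a description. For Hoxc9 the difference was 0.05 with a 95% interval of −1.27 to 1.37.

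The next comparison asked whether the loss of Lr11 changed Hox genes within a depot. In scWAT 2 of the 28 were called, against 5.27% of all probes. Hoxa4 was higher in Lr11 -/- (−2.43 ± 0.40) than in WT (−3.68 ± 0.64, SD, n = 3) by 1.25 (SE 0.32, limma adjusted p = 0.0495), with no overlap. Hoxd10 was well above background on the 3 WT scWAT arrays and on none of the Lr11 -/- scWAT arrays. It passed the filter only through WT scWAT, so a call against any other group was favoured by the filter, and its difference of −2.15 (limma adjusted p = 0.0286) is given as a description. On the intensity scale used here WT scWAT was at least 1.84-fold higher than Lr11 -/- scWAT, and the normexp difference given below fell short of this bound. Leaving out a single array ended the call of Hoxa4 in 10 of 12 fits, all but those that lacked replicate 3 of WT scWAT or replicate 1 of Lr11 -/- scWAT. It ended that of Hoxd10 in 7 of 12, which lacked a WT BAT array, replicate 1 of Lr11 -/- BAT, replicate 2 or 3 of Lr11 -/- scWAT, or replicate 2 of WT scWAT. Over all alternatives the difference of Hoxa4 ranged from 0.69 (normexp on the median signals) to 1.81 (without the arrays with high muscle markers) and its adjusted p from 0.00992 to 0.632. That of Hoxd10 ranged from −2.69 (second array series alone) to −0.36 (normexp) and its adjusted p from 0.00231 to 0.437.

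Hoxc8 (0.87) was higher and Hoxb9 (−1.31) lower on all 3 Lr11 -/- scWAT arrays without a call (limma adjusted p = 0.32 and 0.112), which makes 4 of 28 genes without overlap, against 20.4% of all probes. The 3 genes with the largest depot difference had genotype differences in scWAT of 0.35 (95% interval −0.58 to 1.29) for Hoxc9, −0.41 (−1.51 to 0.69) for Hoxa10 and 0.68 (−0.73 to 2.09) for Hoxc10. Hoxc11 differed by −2.42 with an interval of −4.60 to −0.23 (limma adjusted p = 0.146). Like Hoxd10 it passed the filter only through WT scWAT, which favoured a difference, so these values are a description.

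In BAT 0 of the 28 Hox genes were called between genotypes in limma, with 0 at an unadjusted p under 0.05, against 0.0187% and 2.12% of all probes. The differences ran from −1.14 (Hoxa5) to 0.84 (Hoxb8), with 95% intervals that together spanned −2.55 to 2.93. Hoxa4, Hoxa5, Hoxc4 and Hoxd8 were lower on all 3 Lr11 -/- BAT arrays than on all 3 WT BAT arrays, 4 of 28 genes, against 12% of all probes in either direction and 4.65% in this one.

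**Figure D3:**
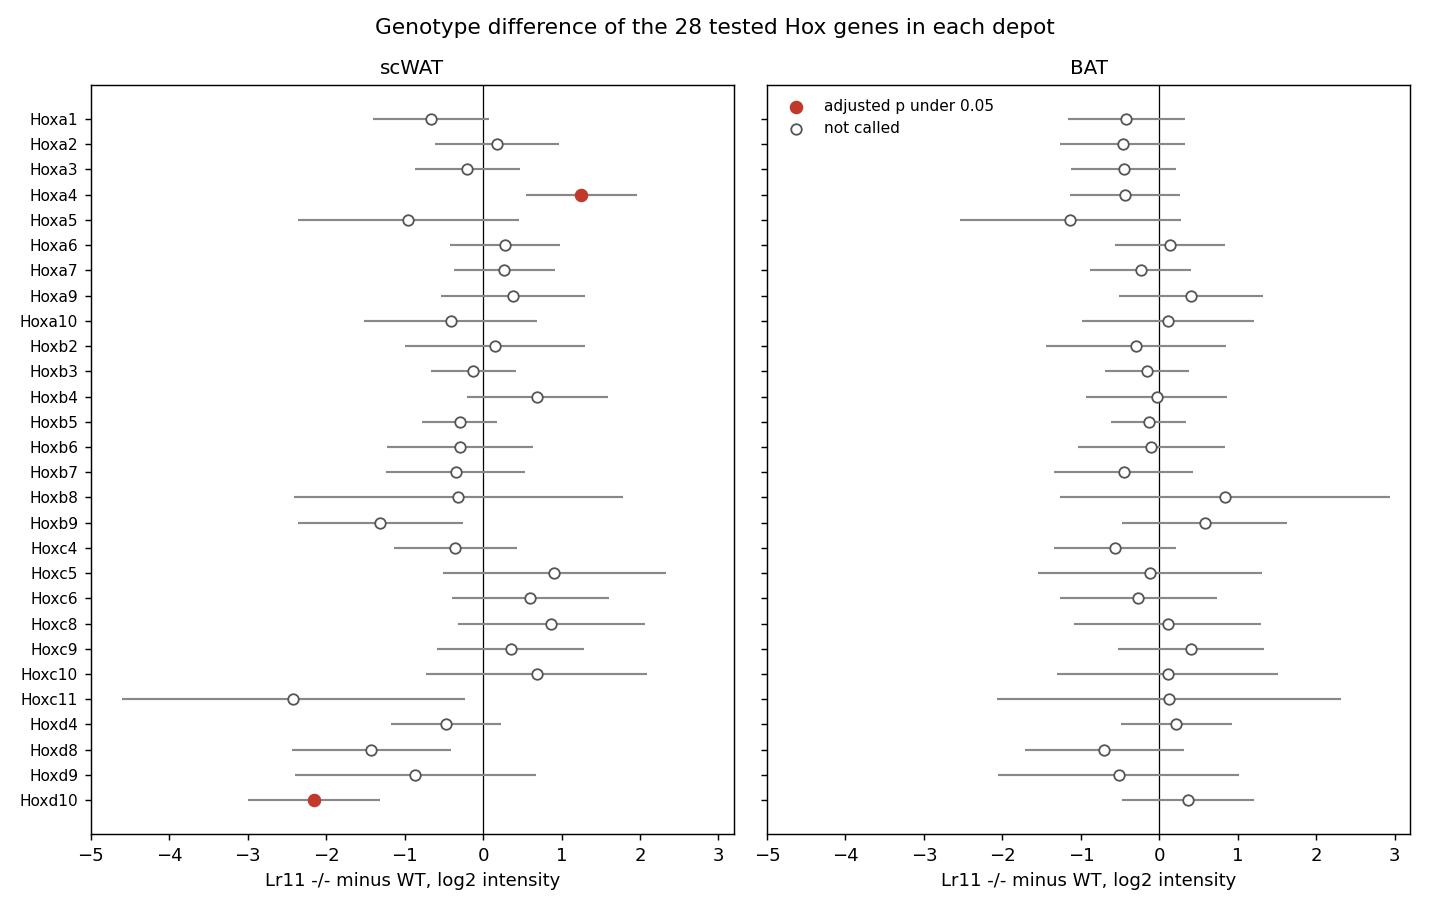
Difference between Lr11 -/- and WT (log2 intensity, x axis) of the 28 tested Hox genes (rows) in scWAT and in BAT, with 95% intervals of the limma fit; red points passed an adjusted p of 0.05. Hoxa4 and Hoxd10 are the only red points, both in scWAT, where Hoxd10 was tested only because it was detected in WT, and the interval of every gene in BAT includes 0.

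The Lr11 -/- scWAT arrays with brown markers at the level of BAT were then placed by their Hox genes. The 11 Hox genes called in WT, whose depot means rest on no Lr11 -/- array although these arrays entered the estimate of the spread, were set on each Lr11 -/- array against the WT scWAT mean and the WT BAT mean. This description was added after the values had been seen. On Lr11 -/- scWAT replicate 1, 10 of the 11 lay nearer the WT scWAT mean. On replicates 2 and 3, 7 of 11 did, the same 7 genes on both (Hoxa3, Hoxa4, Hoxa5, Hoxa10, Hoxc4, Hoxc9 and Hoxc10), while Hoxb9, Hoxc5, Hoxc11 and Hoxd10 lay nearer WT BAT. Hoxc11 and Hoxd10 passed the filter only through WT scWAT, which favoured a place nearer WT BAT on any other array. Hoxc9, Hoxa10 and Hoxc10 passed it only through scWAT. The counts of Hox genes are thus a description. Over all 7970 probes called between the WT depots, 63.1%, 17.9% and 13.2% lay nearer WT scWAT on replicates 1, 2 and 3. On the Lr11 -/- BAT arrays 2, 1 and 3 of the 11 Hox genes lay nearer WT scWAT, against 3.05%, 3.35% and 3.49% of the probes. Replicate 1 also differs from replicates 2 and 3 in its array series and in its muscle and epithelium markers, which cannot be told apart here from its lower brown markers.

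**Figure D4:**
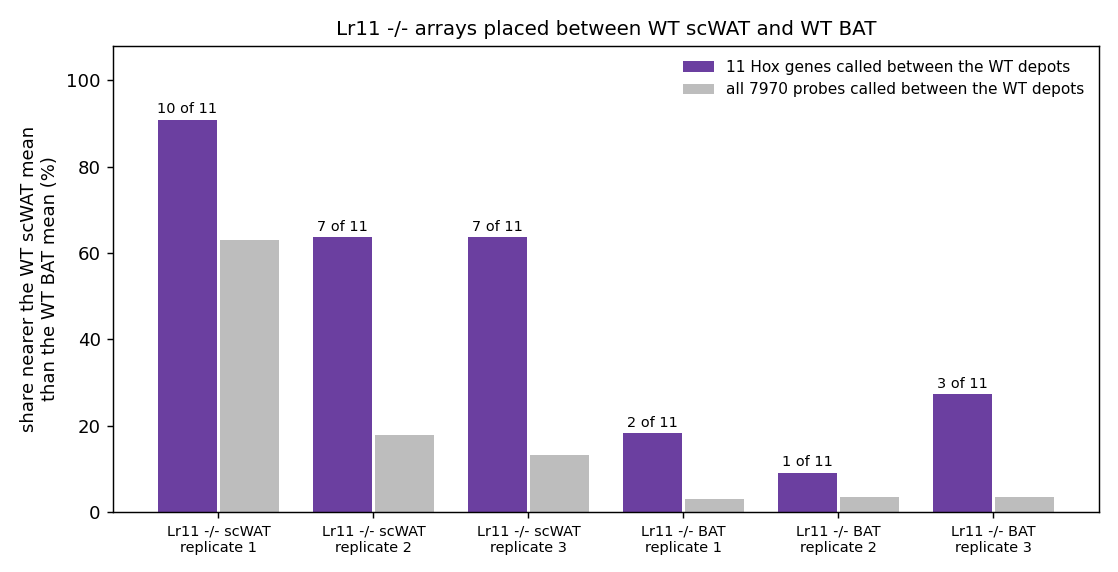
Share of genes or probes (%, y axis from 0) that lay nearer the WT scWAT mean than the WT BAT mean on each Lr11 -/- array (x axis), for the 11 Hox genes called between the WT depots (purple) and all 7970 probes called there (grey). On Lr11 -/- scWAT replicates 2 and 3 the Hox share is 7 of 11, while the share of all probes is 17.9% and 13.2%. Hoxc9, Hoxa10, Hoxc10, Hoxc11 and Hoxd10 passed the filter only through scWAT, so the Hox share is a description.

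Set beside the brown markers, Hoxc9 and Hoxa10 had the level of scWAT on every scWAT array, at low and high brown marker means. Both were named for their large depot difference on these same arrays and passed the filter only through scWAT. Their separation of the depots thus follows from that choice and is a description. Hoxc9 read 2.36 and 2.13 on Lr11 -/- scWAT replicates 2 and 3, where the brown marker mean was 6.08 and 5.88, and −6.87 to −5.79 on the BAT arrays, where it was 5.34 to 6.16. Hoxa4 read −2.20 on both arrays, between the WT scWAT and the BAT values. Without these 2 arrays 9 Hox genes were called between depots (Hoxa4, Hoxa10, Hoxc4, Hoxc5, Hoxc9, Hoxc10, Hoxc11, Hoxd9 and Hoxd10), all among the 14. Without the 5 arrays with high muscle markers 7 were called (Hoxa3, Hoxa4, Hoxa10, Hoxc4, Hoxc9, Hoxc10 and Hoxd9).

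**Figure D5:**
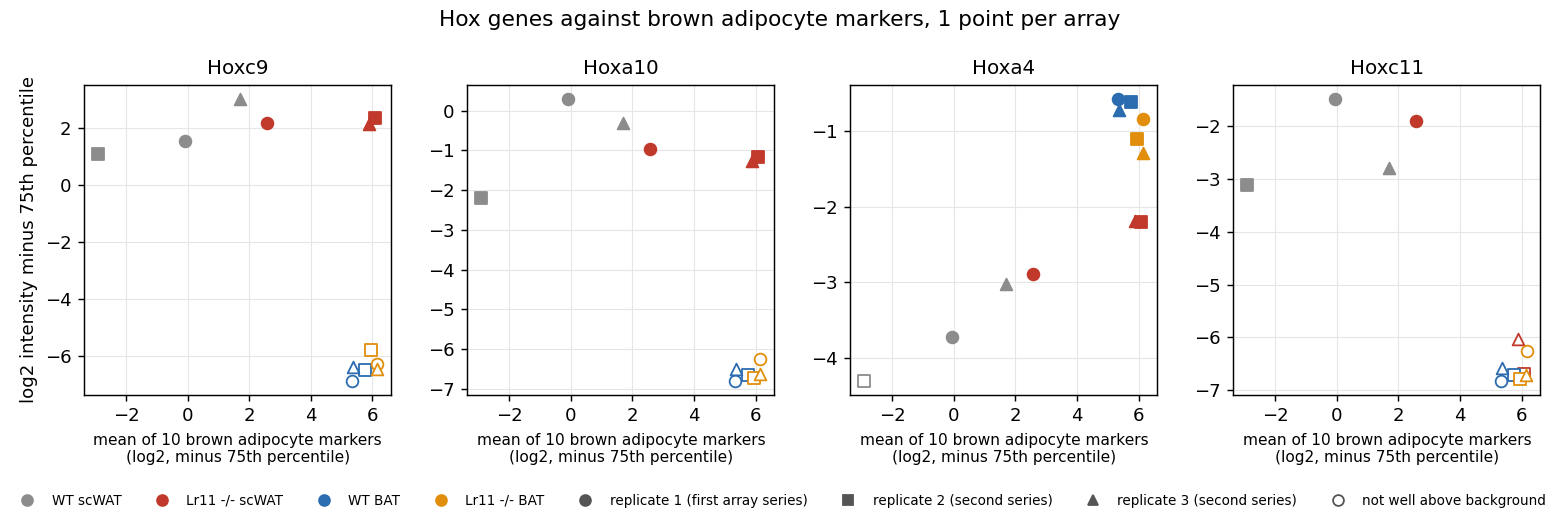
Log2 intensity minus the array's 75th percentile of 4 Hox genes (y axis) against the mean of 10 brown adipocyte markers on the same scale (x axis), with 1 point per array, coloured by group, and open where the Hox gene was not well above background. Hoxc9 and Hoxa10, named for their large depot difference on these arrays, separate all scWAT arrays from all BAT arrays. This includes 2 red arrays at brown marker means near 6, while Hoxc11 is dim on those 2.

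Other genes that act with or on Hox clusters were counted from lists, and their counts stand beside 24.2% of all tested probes called between the depots, 15.6% higher in BAT and 8.64% higher in scWAT. The TALE homeodomain cofactors, which bind DNA together with Hox proteins (Pbx, Meis and Pknox genes), were not called in any of the comparisons. In limma 0 of 8 tested passed, with depot differences from −0.88 to 0.54. An unadjusted p under 0.05 was found for 1 between the depots, 2 between the depots in WT and 2 in Lr11 -/-. Between genotypes it was found for 2 in scWAT and 0 in BAT, and for the difference of the depot differences for 1. Of 25 tested Polycomb genes, which keep Hox genes silent, 6 were called, a share near that of all probes. Of these, 3 were higher in BAT (among them Pcgf1, 0.57) and 3 in scWAT (among them Cbx6, −0.77, and Mtf2, −0.62), with a median difference of 0.12 against 0.07 over all probes. Of 9 Trithorax and demethylase genes, which oppose them, 1 (Men1, 0.45) was higher in BAT. Of 11 tested genes of retinoic acid and Cdx signalling, inputs that set the Hox code in the embryo, 3 were higher in BAT (among them the retinoic acid receptor Rarb, 1.66) and 3 in scWAT. The latter were the degrading enzyme Cyp26b1 (−2.34) and the retinaldehyde dehydrogenases Aldh1a3 (−1.76) and Aldh1a2 (−1.54).

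Of 16 tested other genes known to mark depot position, the T-box factor Tbx5 (3.25) and Eya1 (1.12) were higher in BAT. Irx1 (−3.13) and Irx2 (−3.08), homeodomain factors outside the clusters, were higher in scWAT. The share called was near the 24.2% of all probes. Irx2 was above background on no BAT array and passed the filter only through scWAT, which favoured its call. Tbx5 (2.38) and Eya1 (0.92) were also higher in Lr11 -/- than in WT scWAT, where 5.27% of all probes were called. Both long non-coding RNAs of the clusters that could be tested, Hoxa11os and Hoxd3os1, were not called in limma (−0.69 and −0.01, 0 at an unadjusted p under 0.05). Of 11 tested protein-coding genes that flank the clusters, Hibadh (1.53), beside Hoxa, and Mtx2 (1.36), beside Hoxd, were higher in BAT and 0 in scWAT.

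Cell type markers were counted as well, with the same 24.2% of all probes called as background. Only the stromal progenitor and brown lists had a larger share called between the depots, and the other lists had a smaller one. Of 8 stromal progenitor markers 7 were higher in scWAT, with a list mean of 4.39 to 5.67 in WT scWAT, 2.49 to 4.01 in Lr11 -/- scWAT, 2.44 to 2.73 in WT BAT and 2.27 to 2.86 in Lr11 -/- BAT. The part of these stromal markers in the Hox differences was not tested. Of 10 brown markers 8 were higher in BAT, and of 6 white markers 1 (Mest, an imprinted gene of fat expansion) was higher in scWAT. Of the endothelial and the peripheral nerve markers 1 each was higher in BAT (Tek of 6, S100b of 7). Skeletal muscle, B lymphocyte and epithelium markers were not called in limma (0 of 6, 0 of 5 and 0 of 4 tested, with 0, 0 and 1 at an unadjusted p under 0.05).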

How the data were processed

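Per the file headers and the labels, Cy3-labelled RNA was hybridised to one-colour Agilent mouse arrays and quantified with Feature Extraction 10.10.1.1 (10.10 in the submitters' processing notes). The authors deposited background-subtracted and detrended spot intensity, not normalised between arrays, together with median spot and background intensity and detection flags; their series table held the same values (largest difference 0). Here intensity was log2 transformed and reduced by the 75th percentile of each array, control and outlier spots were removed, and spots of a probe were averaged. Scaling assumes that this percentile is equal between tissues. A total of 28685 probes carried a RefSeq accession and 27235 matched a symbol in the gene table (GRCm38.p6). The 32121 probes detected (flagged well above background) in every replicate of 1 group or more were fitted with limma 3.58.1 in R 4.3.3 to 4 group means, with Benjamini-Hochberg adjustment over all of them and calls at an adjusted p under 0.05. For a gene dim on a whole group, a lower bound of the fold change was taken from the means of normalised log2 values, each dim array being raised to its weakest detected signal. Such a bound holds on that scale only. Array values are given for the Hox genes called in a comparison, at most the 8 with the largest depot difference in each direction, and for at most the 4 called genes with the largest difference per list; uncalled Hox genes named for the size of a difference or for lack of overlap were chosen after their values were seen. A called list gene is not reported here by name. The members, gene lists and tests were chosen with earlier results of these data known. Fits were tested on simulated data with planted depot differences. At a size of 1 in log2 20 of 66 were recovered, at 2 47 of 67 and at 4 63 of 67. Among unchanged probes 8 were called. Depot differences of about 1 in log2 can thus be missed. The 3 arrays per group limit the precision. Alternatives varied the scaling, filter, outlier spots, array series, slide, weights, background, probe rule, threshold and arrays. Normexp on mean signals was not run, since that column was not used here, and median signals took its place. The list of position genes of fat depots and the cell type lists were written by hand, and flanking genes came from the gene table.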

Additional observations from a re-analysis of the deposited data

How the results depend on the processing

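The 14 Hox genes called between the depots, 3 of them also in Lr11 -/-, and the 2 called between genotypes in scWAT kept their direction in the alternatives run for them. Uncalled genes near 0 did not all do so. Between the depots Hoxa9 (−0.04) was 0.11 and Hoxd8 (−0.18) was 0.08 in the second array series alone. Of the values of called genes under an alternative, 443 kept their side of the threshold, 100 fell short of it and 0 reversed. Hoxa4, Hoxa10, Hoxc4, Hoxc9 and Hoxc10 kept the call between BAT and scWAT with the genotypes averaged in every alternative run that could give a value. That count, 14 in the report, was 6 with the filter of all 12 arrays, 6 with the slide as a block, 6 at an adjusted p under 0.01, 9 without both Lr11 -/- scWAT arrays with brown markers at the level of BAT and 7 without the arrays with high muscle markers, and 10 to 15 with single arrays left out. In WT (11) it was 4 with the filter of all 12 arrays, 5 at an adjusted p under 0.01, and 7 to 13 with single arrays left out. In Lr11 -/- (3) it was 0 with the filter of all 12 arrays, 0 in the second array series alone, 8 with array weights, 5 without both brown-level arrays and 1 without the high-muscle arrays, and 2 to 3 with single arrays left out. Between genotypes in scWAT (2) it was 1 with quantile normalization, median scaling, no scaling, the array series as a block or the slide as a block. It was 0 without a filter, with the filter of all 12 arrays, at an adjusted p under 0.01, with normexp, without both brown-level arrays or fitted to the 6 arrays alone, 5 in the second series alone, 4 with array weights or without the high-muscle arrays, and 0 to 5 with single arrays left out. In BAT it was 0 throughout. The difference of the depot differences (0) gave 1 call in the second series alone (Hoxc11), 3 with array weights (Hoxa4, Hoxc11 and Hoxd10) and 0 to 3 with single arrays left out. Hoxc11 and Hoxd10 passed the filter only through WT scWAT, which favoured their calls. The filter of all 12 arrays removes by construction the genes that are dim in a depot, Hoxc9 and Hoxa10 among them; the cause of the other changes was not tested. The median difference between depots over all probes was 0.07 with the scaling used, 0.05 with quantile normalization, 0.17 with median scaling and −0.15 without scaling. Where leaving out arrays left a single array in a group, it was assumed to vary like the other groups. Normexp on median signals and the fits without brown-level or high-muscle arrays, and the fit to 6 arrays alone, were added after seeing the data. The first array series alone holds 1 array per group and gives values with no test. No paired analysis was possible because the labels give no replicate numbers, and those used here only name the arrays. Signal over background limits Hoxc9 and the genes with paralogue numbers 10 to 13. In BAT only Hoxc10 among them was detected, on a single array, and the others have no level there.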

Other observations

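The following 4 Hox genes were too dim to be tested and were read above background on scWAT arrays alone. Hoxa11, which with Hoxa10 patterns the hind limb, was well above background on WT scWAT replicates 1 and 3, at −1.47 and −0.33, while replicate 2 read −6.30, the level of Lr11 -/- scWAT (−6.66 to −6.17) and close to that of WT BAT (−6.86 to −6.46). With the group mean resting on the 2 bright arrays, WT scWAT was at least 4.36-fold higher than WT BAT and at least 4.17-fold higher than Lr11 -/- scWAT. Hoxa13, the last gene of its cluster and a gene of the hind end and digits, was above background on Lr11 -/- scWAT replicates 2 and 3, at −3.25 and −1.72, the arrays with brown markers at the level of BAT. Its second probe, above background on 1 of 12 arrays, differed between BAT and scWAT by 0.06, against −1.15 for the brighter one. Hoxd11 was above background on WT scWAT replicates 2 and 3, at −3.97 and −4.62, and on Lr11 -/- scWAT replicate 3, at −1.75. Hoxd3 was above background on WT scWAT replicate 3 alone, the array with the highest muscle markers, whose part was not tested.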
